A study of Mus musculus with 8 samples.

Results

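Foregut and epithelial identity genes were followed in hearts of mouse embryos at embryonic day 9.5 (E9.5), as a set of 31 genes. The set was listed by name with earlier results of these data known, so shares set beside those of all genes only describe it. The set held 8 endoderm transcription factors, the endoderm signal *Shh*, 4 epithelial transcription factors, 2 epithelial splicing regulators, 6 cell junction genes, 4 keratins, 4 membrane serine proteases or inhibitors of them and 2 genes of epithelial membrane traffic. All 31 were found by Ensembl identifier among the 49315 genes listed. Bulk RNA-seq was available for 8 libraries, 4 from wild-type hearts (WT-1 to WT-4) and 4 from homozygous Tbx20EH1Mut hearts (MT-1 to MT-4), and each library was made from 3 pooled whole hearts. Tbx20 is a T-box transcription factor of the developing heart, and Tbx20EH1Mut replaces a pair of amino acids in its engrailed homology (EH1) domain, through which it binds the TLE corepressors. The allele was made by CRISPR/Cas9 editing, came from a founder animal whose edited allele lacked the Avi tag that the injected embryos could carry, and was crossed back to C57BL/6J mice. It is a germline mutation, so every cell of the embryo carries it, and wild-type hearts carry no engineered allele that the sources name. The comparison asked which genes change when Tbx20 cannot bind TLE. How far neighbouring tissue was trimmed from the hearts is not given in the sources used here, and in bulk samples fewer cells of a type and less RNA per cell cannot be told apart.

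Counted reads came to 33359322 to 49523086 in the wild-type libraries and to 36250675 to 38357025 in the Tbx20EH1Mut libraries (exact two-sided permutation test of the means, p = 0.143). Levels are given as CPM, counts relative to the library size after TMM scaling. On this scale 3 counts, the limit that a count of 0 allows, stood for 0.0598 CPM in WT-3 and 0.0938 CPM in MT-3, the extremes of the 8 libraries, and such limits cover counting error only. *Tbx20* was at 353, 366, 379.6 and 372 CPM in WT-1 to WT-4 and at 215, 247, 289 and 317 CPM in MT-1 to MT-4. Every Tbx20EH1Mut library lay below every wild-type library, but the log2 fold change of -0.46 (standard error, SE, 0.133, adjusted p = 0.0273) was smaller than the fold threshold used here. The substituted codons cannot be seen in counts per gene, and the genotypes are those of the labels. The heart label was checked with 8 cardiomyocyte genes, which summed to 22750 to 32760 CPM in wild-type and 23530 to 36500 CPM in Tbx20EH1Mut libraries, with none called higher or lower.

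At this stage the foregut, an endodermal tube, lies directly behind the heart and gives rise to the thyroid, pharyngeal pouches, lung and liver. Its cells form an epithelium, held together by E-cadherin (*Cdh1*), EpCAM and claudins and filled with keratin filaments, and they carry the FoxA factors and secrete Sonic hedgehog. Grainyhead-like and Ovo-like factors and the Esrp splicing regulators maintain the epithelial state, whereas the repressors of the Zeb and Snail families bind E-boxes in the promoters of epithelial genes and silence them in mesenchyme. Some epithelial genes, keratins 8, 18 and 19 among them, are also active in other simple epithelia, including mesothelium.

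Part of the foregut and epithelial genes rose in Tbx20EH1Mut hearts. Of the 31 genes, 30 had enough counts to be tested, 29 of these had a positive log2 fold change, and 13 (43.3%) were called higher, against 12.5% of all 17163 genes tested. A gene was called when its p from the quasi-likelihood test of edgeR, adjusted by the Benjamini-Hochberg method, was below 0.05 and its log2 fold change was above 0.5 in either direction, the threshold in the study's methods. None of the 30 was called lower, against 12.1% of all genes tested, and 20 of the 30 had an unadjusted p under 0.05. Neither DESeq2 nor limma-voom called any of them lower. The median log2 fold change of the 30 was 2.30, and that of all genes tested was 0.0048. With upper-quartile scaling, the calls over all genes split into 2516 higher and 1566 lower, against 2148 higher and 2070 lower with TMM, and *Esrp2* turned from a negative to a positive log2 fold change.

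The libraries of a genotype did not carry these genes at like levels. Leaving aside *Krt8*, *Krt18* and *Krt19*, which made up 66.8% to 91.3% of the summed level, the other 28 genes summed to 37.4, 153, 25.7 and 47.9 CPM in WT-1 to WT-4 and to 489.8, 438, 119 and 228 CPM in MT-1 to MT-4. WT-2 was thus above MT-3, and MT-1 and MT-2 were the highest libraries. WT-2 was the highest wild-type library for 27 of the 31 genes, MT-3 the lowest Tbx20EH1Mut library for 29, and either MT-1 or MT-2 the highest of all libraries for 27. For 22 genes WT-2 lay above MT-3, and for 22 genes WT-1 and WT-3 were both under 1 CPM. In 16 genes WT-2 stood far above the other wild-type libraries (gap to the next library above Dixon's 95% critical value), which held for 2.65% of all genes tested. The highest wild-type library exceeded the lowest by over 20 times, or a wild-type library had 0 counts, for 18 genes, and by less than 1.5 times for 5 genes, *Hhex*, *Elf3*, *Krt8*, *Krt18* and *Krt19*. The cardiomyocyte genes summed to 22750 CPM in WT-2 and 23530 CPM in MT-1, the lowest of the 8 libraries, and to 36500 CPM in MT-3, the highest. Their part in the differences between libraries was not tested.

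**Figure D1:**
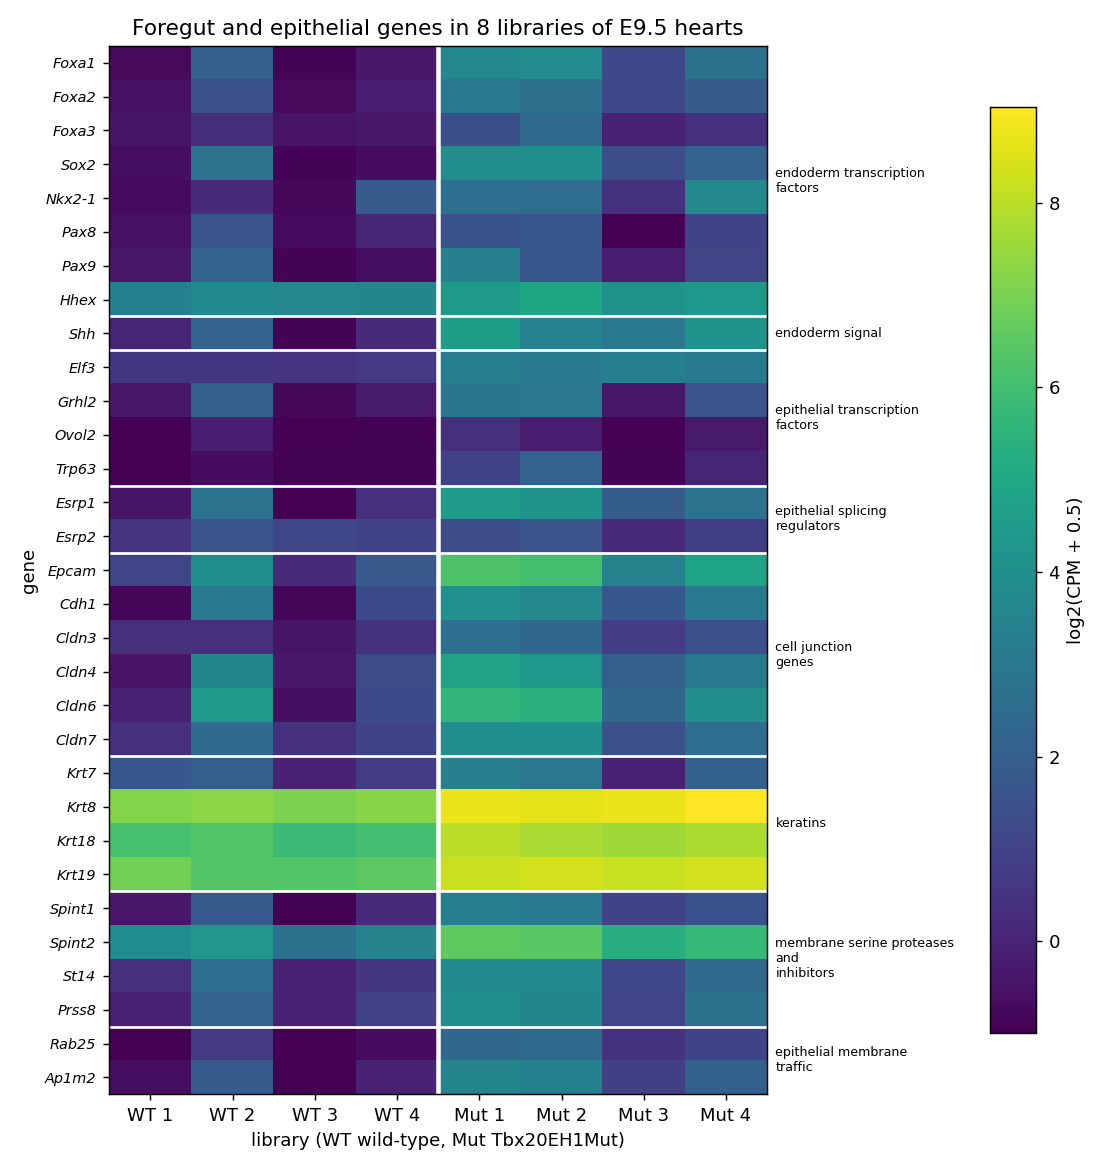
Levels of the 31 genes (rows, grouped by role) in the 8 libraries (columns), coloured by log2(CPM + 0.5). *Krt8*, *Krt18* and *Krt19* are the brightest rows in every library, WT-2 stands out among the wild-type columns, and MT-3 is the dimmest of the Tbx20EH1Mut columns for 29 of the 31 genes.

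The number of calls depended on these libraries. Without WT-2, 27 of the 31 genes were called higher (10.8% of all genes tested in that fit), and without MT-3, 18 were (10.7%). Without MT-1 8 were called (10.6%), and without MT-2 also 8 (11.4%). Leaving out WT-1, WT-3, WT-4 or MT-4 gave 10, 9, 9 and 9, where 16.7%, 7.8%, 7.85% and 8.35% of all genes tested were called higher. *Trp63*, which had too few counts to be tested with all libraries, is one of the genes called without MT-3 and without each wild-type library. It passed the filter there only through libraries where it was high, so its call within these counts is not read. Without WT-2, *Sox2*, *Rab25* and *Ovol2* also passed only through Tbx20EH1Mut libraries. They had at most 6 counts in any other wild-type library, and their calls in that fit are not read. In 8 of the 31 genes (25.8%), *Hhex*, *Shh*, *Elf3*, *Cldn3*, *Krt8*, *Krt18*, *Krt19* and *Spint2*, every Tbx20EH1Mut library lay above every wild-type library, which held for 14.7% of all genes tested. All 8 were called, and 7 of them, all but *Shh*, were called in each of the 8 fits that left out 1 library. The other 5 called genes, *Foxa2*, *Foxa3*, *Epcam*, *Cldn7* and *Prss8*, had overlapping genotypes. Without WT-2 the log2 fold change rose from 2.69 to 4.53 for *Foxa2*, from 2.46 to 3.05 for *Foxa3*, from 2.19 to 3.19 for *Cldn7*, from 2.42 to 3.46 for *Prss8* and from 3.48 to 5.25 for *Shh*. WT-2 was the highest wild-type library for each of these genes, so leaving it out raises the fold change by construction. Calls gained by leaving out the highest wild-type or the lowest Tbx20EH1Mut library, here and below, only describe this dependence and are not support for a rise.

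**Figure D2:**
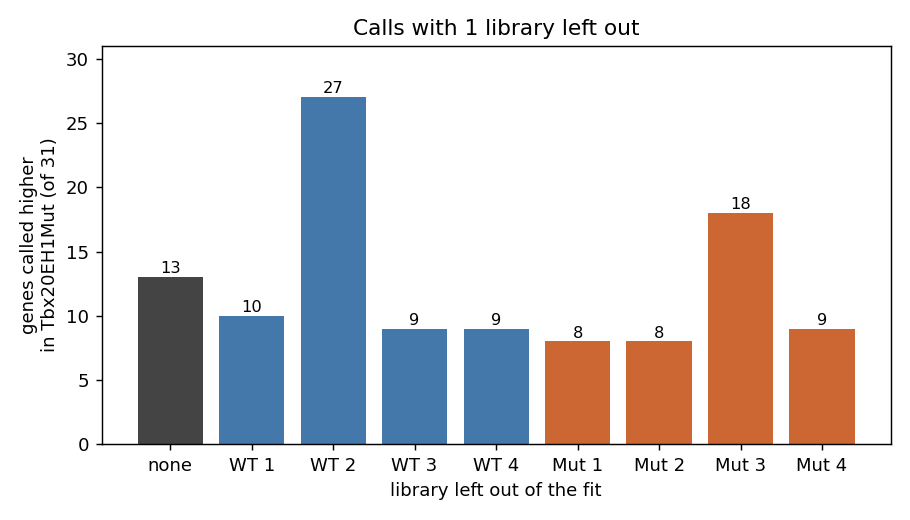
Number of the 31 genes called higher in Tbx20EH1Mut hearts (bars) with all libraries and with 1 library left out of the fit (horizontal axis; blue wild-type, orange Tbx20EH1Mut). The count runs from 8 without MT-1 or MT-2 to 27 without WT-2, and is 13 with all libraries. The counts without MT-3 and without each wild-type library include *Trp63*, whose calls there are not read. The count without WT-2 also includes *Sox2*, *Rab25* and *Ovol2*, whose calls there are not read.

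Promoter sequences are shown for genes of both kinds, steady and uneven, because most of those searched held one sequence feature that the choice of genes had not used. RefSeq's annotation of GRCm38.p6 gave 25 promoters for 22 of the 31 genes, each of 300 bases, from 250 before to 50 after the start of transcription. They were searched on both strands for the E-box that Zeb and Snail factors bind (CACCTG), a Grainyhead-like motif (AACCNGTT), a FoxA motif (TGTTTAC) and a T-box motif (AGGTGTGA), of which the E-box and the T-box motif can overlap in the letters AGGTG. The E-box stood in 17 of the 25 promoters (68.0%), each of a different gene, and in 20.2% of all 32841 promoters of the same length. The Grainyhead-like motif was found in the *Rab25* promoter and in 2.09% of all promoters, and the FoxA motif in the *Foxa1* promoter and in 3.65%. The T-box motif was in none of the 25 and in 1.28% of all promoters. Base composition was not matched, and a match is only a run of letters, not a bound site. The promoters of *Elf3*, *Krt8*, *Krt18* and *Spint2*, whose genotypes did not overlap, and of *Epcam*, *Ap1m2* and *Rab25*, whose genotypes did, are printed 5′ to 3′ on the strand of the gene, with motif matches in capitals (CACCTG or its reverse complement CAGGTG, and in *Rab25* also the Grainyhead-like motif). They lie at chr1:135258423-135258722, minus strand (*Elf3*), chr15:102004293-102004592, minus strand (*Krt8*), chr15:102027966-102028265, plus strand (*Krt18*), chr7:29281928-29282227, minus strand (*Spint2*), chr17:87635729-87636028, plus strand (*Epcam*), chr9:21312284-21312583, minus strand (*Ap1m2*) and chr3:88548230-88548529, minus strand (*Rab25*).
Elf3: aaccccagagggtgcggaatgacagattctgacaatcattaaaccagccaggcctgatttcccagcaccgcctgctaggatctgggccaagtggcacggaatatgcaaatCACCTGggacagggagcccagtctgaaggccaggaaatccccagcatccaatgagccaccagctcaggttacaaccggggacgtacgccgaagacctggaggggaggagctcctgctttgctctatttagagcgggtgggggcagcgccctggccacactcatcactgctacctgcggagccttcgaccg
Krt8: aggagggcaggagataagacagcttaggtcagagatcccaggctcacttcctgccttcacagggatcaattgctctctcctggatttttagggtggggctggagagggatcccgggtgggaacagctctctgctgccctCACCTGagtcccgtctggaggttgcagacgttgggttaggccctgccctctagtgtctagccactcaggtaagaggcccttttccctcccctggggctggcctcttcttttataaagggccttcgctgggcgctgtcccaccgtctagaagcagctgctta
Krt18: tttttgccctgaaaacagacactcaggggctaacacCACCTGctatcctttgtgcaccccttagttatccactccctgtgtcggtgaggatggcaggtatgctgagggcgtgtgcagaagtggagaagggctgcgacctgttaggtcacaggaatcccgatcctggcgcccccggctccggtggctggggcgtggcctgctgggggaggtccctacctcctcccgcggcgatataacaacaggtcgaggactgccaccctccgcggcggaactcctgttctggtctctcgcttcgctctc
Spint2: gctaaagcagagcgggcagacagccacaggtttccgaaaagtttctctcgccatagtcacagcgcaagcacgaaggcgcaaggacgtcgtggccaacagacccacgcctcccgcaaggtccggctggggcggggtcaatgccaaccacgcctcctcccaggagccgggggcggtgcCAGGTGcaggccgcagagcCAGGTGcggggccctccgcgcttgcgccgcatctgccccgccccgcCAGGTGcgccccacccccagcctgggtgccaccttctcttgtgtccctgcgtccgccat
Epcam: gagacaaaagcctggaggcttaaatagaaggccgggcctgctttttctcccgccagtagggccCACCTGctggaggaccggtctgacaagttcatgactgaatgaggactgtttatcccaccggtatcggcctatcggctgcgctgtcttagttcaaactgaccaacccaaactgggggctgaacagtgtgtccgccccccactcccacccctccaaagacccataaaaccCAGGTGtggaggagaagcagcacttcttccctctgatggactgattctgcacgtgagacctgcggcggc
Ap1m2: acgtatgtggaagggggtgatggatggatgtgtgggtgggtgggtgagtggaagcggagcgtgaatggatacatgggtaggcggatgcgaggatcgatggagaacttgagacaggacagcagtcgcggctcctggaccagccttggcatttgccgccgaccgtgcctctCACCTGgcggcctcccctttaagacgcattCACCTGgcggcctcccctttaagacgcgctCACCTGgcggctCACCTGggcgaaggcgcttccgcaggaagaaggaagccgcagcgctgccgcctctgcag
Rab25: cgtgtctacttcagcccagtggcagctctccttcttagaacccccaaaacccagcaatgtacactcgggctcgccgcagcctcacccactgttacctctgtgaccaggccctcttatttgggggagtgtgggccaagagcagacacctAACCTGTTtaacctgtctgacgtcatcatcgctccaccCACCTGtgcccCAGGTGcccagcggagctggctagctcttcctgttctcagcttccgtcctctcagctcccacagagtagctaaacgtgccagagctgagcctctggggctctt
The *Ap1m2* promoter held 4 E-boxes, that of *Spint2* held 3, those of *Epcam* and *Rab25* held 2 each, and those of *Elf3*, *Krt8* and *Krt18* held 1 each.

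Of the 8 endoderm transcription factors, 3 were called higher, *Foxa2*, *Foxa3* and *Hhex*. *Hhex*, a homeobox factor of the anterior endoderm that endothelial cells also use, was at 10.2, 13.6, 12.2 and 11.5 CPM in WT-1 to WT-4 and at 21.3, 30.6, 17.4 and 19.9 CPM in MT-1 to MT-4. All wild-type libraries lay below all Tbx20EH1Mut libraries, and the mean of 11.9 ± 1.42 CPM in wild-type rose to 22.3 ± 5.78 CPM in Tbx20EH1Mut hearts (SD, n = 4 each), the smallest rise among the called genes (log2 fold change 0.91, SE 0.183, adjusted p = 0.00606, edgeR). *Foxa2*, a pioneer factor of endoderm, notochord and floor plate, was at 0.182, 2.32, 0.0996 and 0.349 CPM in the wild-type libraries and at 8.42, 5.97, 1.84 and 3.18 CPM in the Tbx20EH1Mut libraries. WT-2 exceeded MT-3 for this gene, while the other wild-type libraries stayed under 0.4 CPM. Its log2 fold change was 2.69 (SE 0.869, adjusted p = 0.0413), and the call was kept in 2 of the 8 fits with a library left out, those without WT-2 or MT-3. *Foxa3*, the FoxA member most used in liver and gut, was at 0.243, 0.754, 0.219 and 0.305 CPM and at 2.18, 5.04, 0.438 and 0.822 CPM. It peaked in MT-2, with a log2 fold change of 2.46 (SE 0.742, adjusted p = 0.0326), and was called in 3 of the 8 fits with a library left out, those without WT-2, MT-3 or MT-4. Without MT-2 the log2 fold change of *Foxa3* was 1.57 (adjusted p = 0.1005), and limma-voom did not call the gene (2.08, adjusted p = 0.0878).

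The other 5 endoderm factors were not called with all libraries. *Foxa1*, the partner of *Foxa2* in foregut endoderm, was at 0.0910, 3.73, 0.0398 and 0.305 CPM in WT-1 to WT-4 and at 12.5, 13.9, 1.81 and 6.20 CPM in MT-1 to MT-4. *Sox2*, which marks the anterior foregut as well as neural tissue, was at 0.152, 6.66, 0.0398 and 0.131 CPM in the wild-type and at 15.2, 15.5, 2.16 and 3.92 CPM in the Tbx20EH1Mut libraries. Both genes had a wild-type range set by WT-2 alone. Their log2 fold changes were 3.02 (95% interval 0.56 to 5.48, adjusted p = 0.0635) and 2.38 (95% interval -0.41 to 5.16, adjusted p = 0.173). Without WT-2 they were 5.86 (adjusted p = 0.00252) and 6.46. *Foxa1* was called there, while *Sox2* passed the filter there only through Tbx20EH1Mut libraries, so its test is not read. *Pax9*, a factor of the pharyngeal pouches, was at 0.273, 3.95, 0.0398 and 0.153 CPM and at 9.92, 2.81, 0.375 and 1.67 CPM, high in MT-1 and in WT-2 and otherwise lower (adjusted p = 0.301). *Pax8*, a thyroid and kidney factor, was at 0.182, 2.55, 0.119 and 0.567 CPM and at 2.36, 2.79, 0 and 1.51 CPM, with 0 counts in MT-3, which allows up to 0.0938 CPM there (log2 fold change 0.95, 95% interval -1.46 to 3.36, adjusted p = 0.529). *Nkx2-1*, the factor of thyroid and lung primordia, followed an order of its own, at 0.121, 0.631, 0.0797 and 3.21 CPM and at 5.88, 5.58, 0.875 and 12.6 CPM. WT-4 and MT-4 were the highest libraries of their genotypes for *Nkx2-1*, where WT-2 and MT-1 or MT-2 led for most of the other genes. Its log2 fold change was 2.61 (95% interval 0.32 to 4.90, adjusted p = 0.0798), and it was called without WT-4 (adjusted p = 0.0178) and without MT-3 (adjusted p = 0.0469). *Nkx2-1* and *Pax9* lie on chromosome 12 with 154.9 kb between them, and their levels did not peak in the same libraries.

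*Shh*, the hedgehog ligand that endoderm, notochord and floor plate secrete, had the largest log2 fold change of the 30 genes tested. It was at 0.516, 4.03, 0.0398 and 0.655 CPM in WT-1 to WT-4 and at 23.9, 10.3, 7.85 and 17.4 CPM in MT-1 to MT-4. Every Tbx20EH1Mut library lay above WT-2, the highest wild-type library, although by less than 2 times for MT-3. The log2 fold change was 3.48 (SE 0.890, adjusted p = 0.0170), and the gene was called in 7 of the 8 fits with a library left out, the exception being the fit without WT-4 (adjusted p = 0.0549). Of 6 hedgehog response genes, *Foxf1*, a factor of the mesenchyme around the foregut, and *Hhip*, which binds the ligand, were called higher and none lower. *Foxf1* was at 1.33, 7.52, 1.69 and 0.698 CPM and at 32.6, 12.1, 9.06 and 9.65 CPM, with MT-1 far above the rest (log2 fold change 2.48, adjusted p = 0.0266). *Hhip* was at 0.395, 1.81, 0.339 and 0.502 CPM and at 7.69, 3.03, 1.78 and 3.55 CPM, and as for *Foxf1*, WT-2 was the highest wild-type library (log2 fold change 2.38, adjusted p = 0.0181).

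Of the 4 epithelial transcription factors, *Elf3* was the single one called with all libraries, and it had the smallest adjusted p of all 30 genes. *Elf3*, an ETS factor of simple epithelia, was at 1.06, 1.06, 0.976 and 1.09 CPM in WT-1 to WT-4 and at 9.32, 8.21, 9.63 and 8.19 CPM in MT-1 to MT-4. The libraries of a genotype were nearly level, 1.05 ± 0.0495 CPM in wild-type and 8.84 ± 0.748 CPM in Tbx20EH1Mut hearts (SD, n = 4 per genotype), and neither WT-2 nor MT-3 stood apart. The log2 fold change was 3.07 (SE 0.177, adjusted p = 1.26e-05), and it stayed within 3.03 to 3.11 whichever library was left out. *Grhl2*, the Grainyhead-like factor of early epithelia, was at 0.303, 3.69, 0.0797 and 0.327 CPM and at 7.20, 7.36, 0.281 and 2.46 CPM, with MT-3 below WT-1 and below WT-4 (log2 fold change 1.96, 95% interval -0.50 to 4.42, adjusted p = 0.200). *Ovol2*, a repressor of mesenchymal genes, was close to the limit of counting, at 0 counts in WT-1, WT-3 and MT-3 and at most 0.83 CPM, in MT-1 (adjusted p = 0.293). *Trp63*, the p63 factor of stratifying epithelia, had 0, 6, 1 and 1 counts in the wild-type libraries and 60, 147, 1 and 20 in the Tbx20EH1Mut libraries. It was the gene that the filter on low counts left out, and the exact two-sided permutation test of its mean level missed the 0.05 threshold (p = 0.0571, and 0.0286 is the lowest p that can be had with 4 libraries per genotype). In fits that tested every gene with a count, *Trp63* was called higher, with log2 fold changes of 5.16 in DESeq2 (adjusted p = 0.00243) and 5.002 in edgeR without the filter (adjusted p = 0.0049). Without any 1 wild-type library or without MT-3 it passed the filter through MT-1, MT-2 and MT-4, where it was high, so its calls in those fits are not read.

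The 2 epithelial splicing regulators, RNA-binding proteins that direct the epithelial forms of many transcripts, had unlike values. *Esrp1* was at 0.243, 6.64, 0 and 0.807 CPM in WT-1 to WT-4, with 0 counts in WT-3, and at 22.4, 17.6, 3.41 and 6.52 CPM in MT-1 to MT-4. WT-2 lay above MT-4 for *Esrp1*, and its log2 fold change of 2.68 (95% interval 0.14 to 5.22) was not called (adjusted p = 0.101). *Esrp2* was at 0.971, 2.65, 1.67 and 1.53 CPM and at 2.05, 2.63, 0.688 and 1.32 CPM. It was the one gene tested without a positive log2 fold change, -0.03 with a 95% interval of -0.997 to 0.94 (adjusted p = 0.965), so that a change of up to 2 times in either direction was not excluded. Exons of *Esrp2* share 219 bases with *Nfatc3* on the opposite strand, which had 11808 counts against 566 for *Esrp2* over the 8 libraries, and the strand setting is not given in the sources used here. If strand was not used in counting, reads in that stretch, 5.0% of the exon bases of *Esrp2*, could come from either gene. *Prss8* likewise shares 122 exon bases (6.6%) with *Kat8*, and *Elf3* shares 162 (7.3%) with Gm26642.

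All 6 cell junction genes had positive log2 fold changes, and 3 of them, *Epcam*, *Cldn3* and *Cldn7*, were called. *Epcam*, an adhesion molecule found on most epithelia, was at 1.64, 15.3, 0.657 and 3.03 CPM in WT-1 to WT-4 and at 75.4, 67.2, 10.7 and 27.5 CPM in MT-1 to MT-4. The levels ran over 100 times from WT-3 to MT-1, and WT-2 exceeded MT-3. The log2 fold change was 3.12 (SE 0.905, adjusted p = 0.0281), 4.69 without WT-2, and the call was kept in 3 of the 8 fits with a library left out, those without WT-1, WT-2 or MT-3. *Cldn3*, a tight junction claudin, was at 0.789, 0.815, 0.239 and 0.873 CPM and at 5.93, 4.65, 1.28 and 2.25 CPM. Unlike for its neighbour *Cldn4*, WT-2 was level with WT-1 and WT-4 for *Cldn3*, and no wild-type library reached MT-3 (log2 fold change 2.38, SE 0.539, adjusted p = 0.0102). *Cldn4* was at 0.212, 11.5, 0.299 and 2.05 CPM and at 27.0, 19.6, 3.63 and 8.56 CPM and was not called (adjusted p = 0.161). The pair lies 39.3 kb apart on chromosome 5. *Cldn7* was at 0.789, 5.17, 0.857 and 1.51 CPM and at 14.6, 15.8, 2.34 and 5.49 CPM, with WT-2 close to MT-4 (log2 fold change 2.19, adjusted p = 0.0438, called in the fits without WT-2 or MT-3 and lost without any other library). *Cldn6*, the claudin of early embryonic epithelia, spread most widely among the wild-type claudins, at 0.485, 20.8, 0.139 and 1.90 CPM against 48.2, 41.6, 4.56 and 14.7 CPM. WT-2 exceeded both MT-3 and MT-4 for *Cldn6*, and the log2 fold change of 2.22 had a 95% interval of -0.44 to 4.87 (adjusted p = 0.181). *Cdh1*, the adherens junction cadherin of epithelia, was at 0.0607, 8.09, 0.0598 and 1.90 CPM and at 16.6, 12.7, 2.94 and 8.06 CPM, and WT-2 stood slightly above MT-4 (log2 fold change 1.98, 95% interval -0.46 to 4.43, adjusted p = 0.194). Without WT-2, each of these 6 genes was called.

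**Figure D3:**
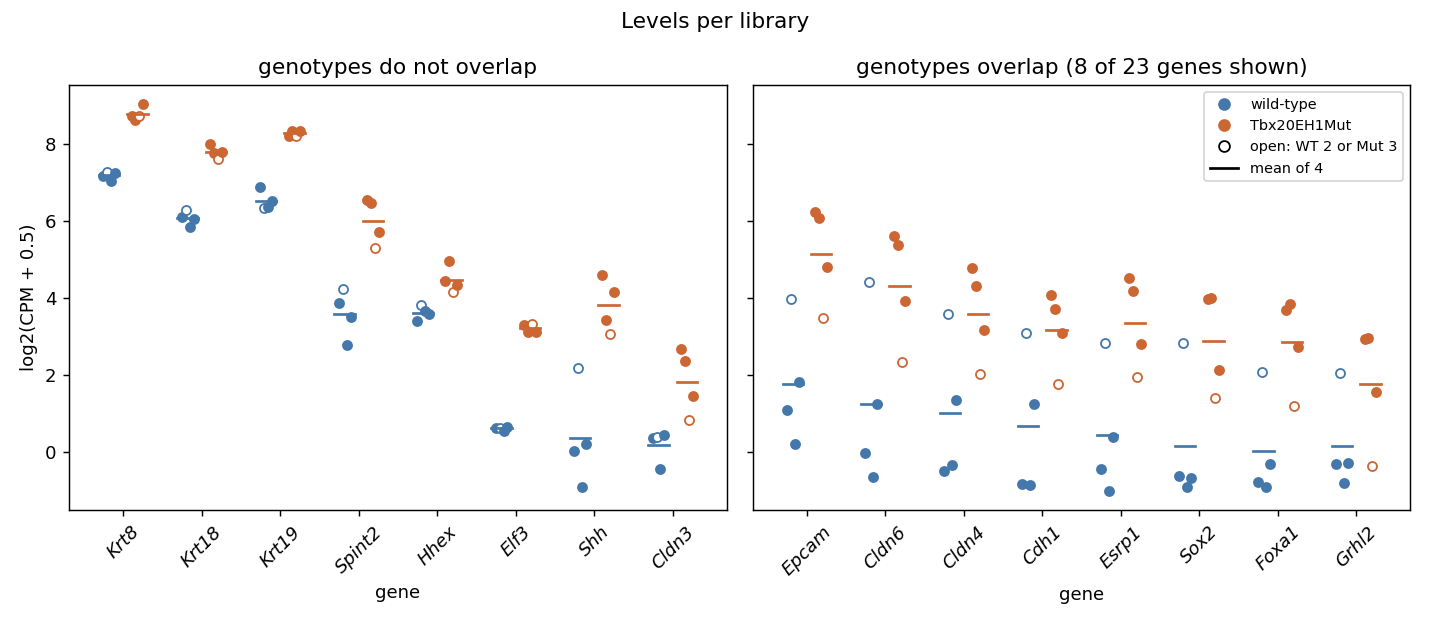
Levels of 16 of the 31 genes as log2(CPM + 0.5), 1 point per library (blue wild-type, orange Tbx20EH1Mut, open symbols WT-2 and MT-3) with the mean of 4 as a line. Left, the 8 genes whose genotypes do not overlap, with *Elf3* from 0.976 to 1.09 CPM in wild-type and from 8.19 to 9.63 CPM in Tbx20EH1Mut libraries. Right, 8 of the 23 genes whose genotypes overlap, where the open wild-type symbol lies above the open Tbx20EH1Mut symbol.

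Of the 4 keratins 3 were called, and these had the highest levels per kilobase of exon of the 31 genes. *Krt8*, the type II keratin of simple epithelia, was at 145, 155, 131 and 152 CPM in WT-1 to WT-4 and at 428, 397, 428 and 526 CPM in MT-1 to MT-4. *Krt18*, its type I partner, was at 68.5, 78.1, 57.1 and 65.8 CPM and at 258, 219, 195 and 222 CPM. *Krt19*, a smaller type I keratin, was at 118, 80.5, 81.9 and 91.2 CPM and at 299, 325, 295 and 325 CPM. For all 3 the genotypes were well apart, and neither WT-2 nor MT-3 lay far from the other libraries of its genotype. The mean of *Krt8* rose from 146 ± 10.7 to 445 ± 56.0 CPM (SD, n = 4 per genotype), with a log2 fold change of 1.61 (SE 0.124, adjusted p = 4.59e-05). The log2 fold changes of *Krt18* and *Krt19* were 1.73 (SE 0.132, adjusted p = 4.46e-05) and 1.74 (SE 0.141, adjusted p = 6.03e-05), and the 95% intervals of the 3 genes overlapped. *Krt8* and *Krt18* are neighbours on chromosome 15, on opposite strands with 23.9 kb between them. Per kilobase of exon, the level of *Krt8* was 80.9 CPM in wild-type and 246 CPM in Tbx20EH1Mut hearts, that of *Krt18* 48.1 and 159.6 CPM, and that of *Krt19* 50.1 and 168 CPM. The ratio of the type II keratin *Krt8* to the summed type I partners, per kilobase, was 0.712 to 0.877 in wild-type and 0.663 to 0.874 in Tbx20EH1Mut libraries, and these ranges overlapped. *Krt7*, a type II keratin of ducts, was far lower per kilobase (0.291 and 0.765 CPM), at 2.94, 3.67, 0.458 and 1.16 CPM and at 9.79, 7.46, 0.5001 and 3.84 CPM. WT-1, WT-2 and WT-4 lay above MT-3 for *Krt7*, and it was not called (log2 fold change 1.40, 95% interval -0.35 to 3.15, adjusted p = 0.198).

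The membrane serine proteases and their inhibitors act at the surface of epithelial cells, where matriptase (*St14*) and prostasin (*Prss8*) cleave other surface proteins and the Kunitz-type inhibitors *Spint1* and *Spint2* restrain them. *Spint2* was at 14.3, 18.4, 6.41 and 10.9 CPM in WT-1 to WT-4 and at 92.7, 88.3, 39.0 and 52.5 CPM in MT-1 to MT-4. It followed the order of the libraries, lowest in WT-3 and highest in MT-1, yet MT-3 still lay above WT-2 by over 2 times (log2 fold change 2.45, SE 0.358, adjusted p = 0.00135). *Prss8* was at 0.455, 4.03, 0.458 and 1.44 CPM and at 15.2, 11.4, 1.66 and 6.17 CPM, was called (log2 fold change 2.42, adjusted p = 0.0423), and like *Cldn7* kept the call without WT-2 or MT-3 alone, and limma-voom did not call it (2.59, adjusted p = 0.0514). *St14* was at 0.789, 5.58, 0.438 and 1.004 CPM and at 13.6, 13.3, 1.69 and 4.93 CPM (log2 fold change 2.09, 95% interval 0.24 to 3.94, adjusted p = 0.0825). *Spint1* was at 0.273, 3.14, 0.0199 and 0.633 CPM and at 9.61, 8.02, 1.53 and 2.38 CPM (log2 fold change 2.39, 95% interval 0.16 to 4.62, adjusted p = 0.0961). Neither *St14* nor *Spint1* was called with all libraries, and both were without WT-2.

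Both genes of epithelial membrane traffic were near 0 in WT-1 and WT-3. *Rab25*, a small GTPase of recycling endosomes, had 0 counts in WT-1 and WT-3, 1.14 CPM in WT-2 and 0.131 CPM in WT-4, against 4.79, 5.10, 0.875 and 1.51 CPM in MT-1 to MT-4. *Ap1m2*, the epithelial subunit of the AP-1 clathrin adaptor, was at 0.152, 3.08, 0 and 0.480 CPM and at 11.5, 10.01, 1.38 and 3.90 CPM, with 0 counts in WT-3. In both, WT-2 exceeded MT-3. Their log2 fold changes, 3.22 (95% interval 0.70 to 5.73, adjusted p = 0.0554) and 2.83 (95% interval 0.38 to 5.28, adjusted p = 0.0767), were among the 6 largest of the 30 but were not called. *Ap1m2* was called without WT-2, and the call of *Rab25* in that fit is not read.

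**Figure D4:**
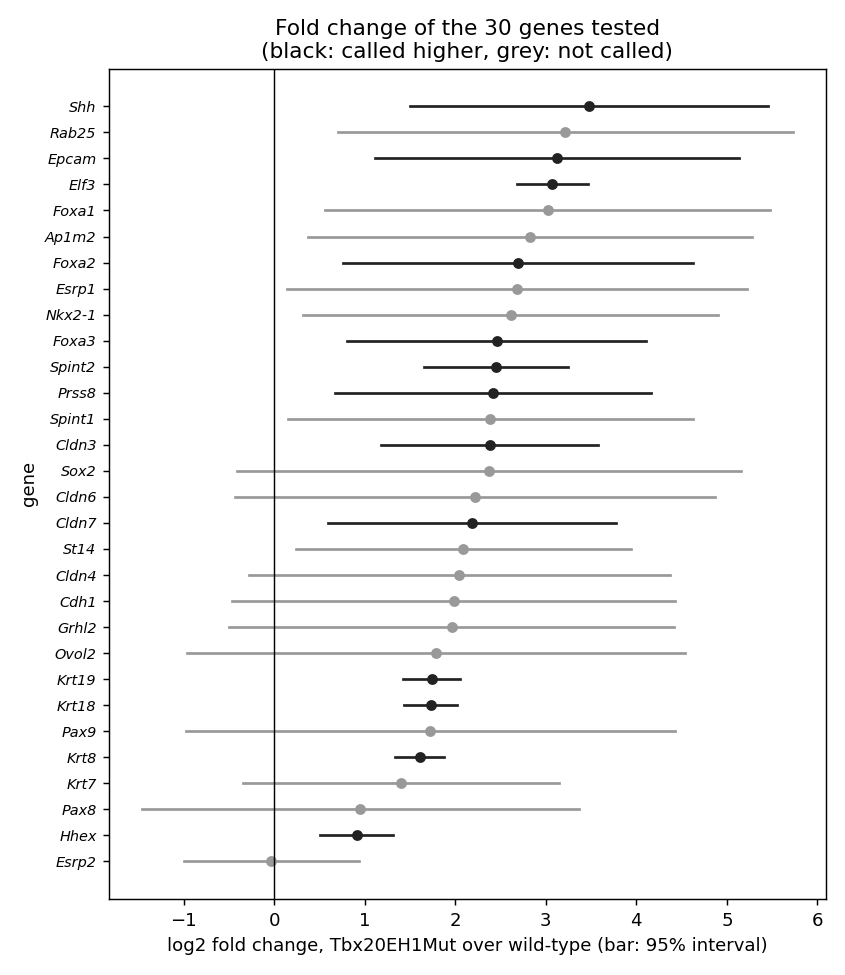
Log2 fold change, Tbx20EH1Mut over wild-type, of the 30 genes tested (points) with 95% intervals (bars), ordered by size. The 13 called genes are black, and the intervals of *Elf3*, *Krt8*, *Krt18*, *Krt19* and *Hhex* are the shortest, whereas that of *Esrp2* is centred near 0 (-0.997 to 0.94).

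Because the level of the whole set differed between libraries of a genotype, the counts of each gene were also set against those of *Epcam* in the same library. *Foxa2* had 11.1, 15.2, 15.2 and 11.5 counts per 100 counts of *Epcam* in WT-1 to WT-4 and 11.2, 8.89, 17.2 and 11.6 in MT-1 to MT-4. The ratio of *Foxa2* to *Epcam* thus stayed within a range of 2 times, while *Epcam* itself ranged over 100 times. *Cldn6* had 29.6, 136, 21.2 and 62.6 counts per 100 of *Epcam* in the wild-type and 64.0, 61.9, 42.7 and 53.3 in the Tbx20EH1Mut libraries, and its highest ratio was in WT-2. *Sox2* was likewise highest relative to *Epcam* in WT-2, with 43.5 counts per 100 against 4.32 to 9.26 in the other wild-type and 14.2 to 23.0 in the Tbx20EH1Mut libraries. *Nkx2-1* had 105.8 and 45.8 counts per 100 of *Epcam* in WT-4 and MT-4 and between 4.13 and 12.1 in the other 6 libraries. *Shh* stood at 73.4 and 63.0 counts per 100 in MT-3 and MT-4 and at 6.06 to 31.7 in the rest. *Elf3* and the keratins did not keep a fixed ratio to *Epcam*, with 6.92 counts of *Elf3* per 100 in WT-2 and 148.5 in WT-3. Few counts lie behind the ratios of WT-1 and WT-3, where *Epcam* had 54 and 33 counts.

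**Figure D5:**
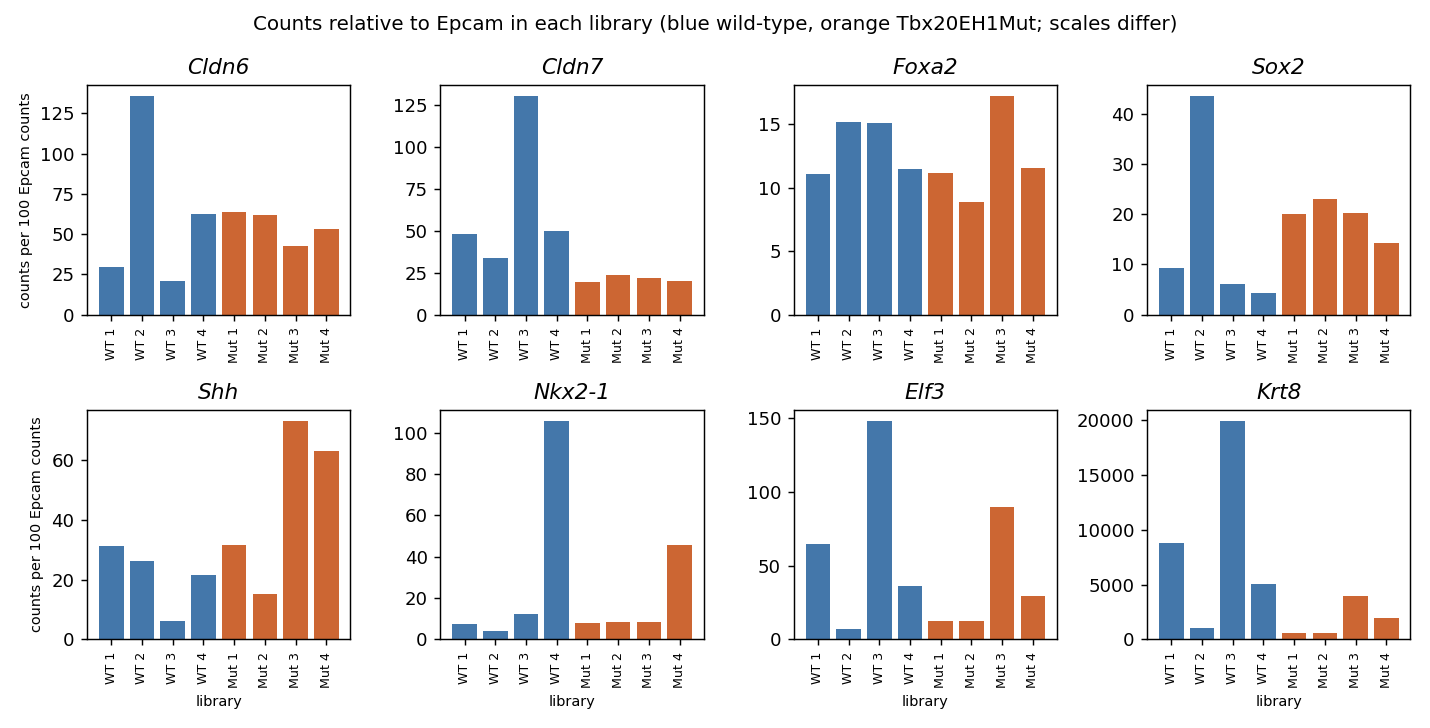
Counts per 100 counts of *Epcam* in each library (bars; blue wild-type, orange Tbx20EH1Mut; vertical scales start at 0 and differ between genes). *Foxa2* stays between 8.89 and 17.2, *Cldn6* and *Sox2* are highest in WT-2, *Nkx2-1* in WT-4 and MT-4, and *Elf3* and *Krt8* in WT-3, where *Epcam* had 33 counts.

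In a fit added once the data had been seen, the mean log2 CPM of *Epcam*, *Cdh1* and *Cldn6* entered as a second term beside genotype for the other 27 genes tested. These 3 genes belong to the set, and *Epcam* was itself called higher, so the second term varies with genotype, and the fit asks only what difference was left at a given level of these 3. Of the 27 genes, 17 had a positive and 10 a negative log2 fold change, and 6 were called higher and none lower, where 12 had been called higher with genotype alone. The share of all genes called higher was 18.4% in this fit, so the count of 6 is not read as a result about the set. Most of the 27 genes followed the order of libraries of these 3, so smaller fold changes were in part built in. The 6 were *Elf3* (3.08, SE 0.255, adjusted p = 5.41e-05, edgeR), *Krt8* (1.54), *Krt18* (1.46), *Krt19* (1.86), *Spint2* (1.504, adjusted p = 0.00392) and *Shh* (2.01, adjusted p = 0.0150). All 6 are genes whose genotypes did not overlap. *Hhex* at 0.59 (adjusted p = 0.0639), *Cldn3* at 0.97 (adjusted p = 0.278), *Foxa2* at 0.73 (adjusted p = 0.104), *Foxa3* at 0.39, *Cldn7* at 0.051 and *Prss8* at 0.048 were no longer called. The negative values ran from -2.02 for *Pax8* to -0.016 for *Sox2*, with none of them called.

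Genes of related tissues were counted from lists that describe what else the dissected hearts could hold. Of 26 other epithelial genes tested, 5 were called higher and 3 lower, beside 12.5% and 12.1% of all genes tested, and the list summed to 1204 to 1664 CPM in wild-type and 1267 to 1426 CPM in Tbx20EH1Mut libraries. In each library 54.1% to 65.8% of that sum came from *Dsp*, *Itga6* and *Jup*, and the median log2 fold change of the 26 genes was 0.67. Without these 3 genes the sums were 449.6 to 588 CPM in wild-type and 486.7 to 581.6 CPM in Tbx20EH1Mut libraries. *Klf5*, a factor of gut epithelium and other tissues, was at 1.21, 1.16, 1.10 and 1.05 CPM and at 2.36, 1.73, 6.56 and 4.37 CPM, highest in MT-3, where most of the 31 genes were lowest (log2 fold change 1.73, adjusted p = 0.0109). *Ocln*, the tight junction protein occludin, was at 1.61, 2.79, 1.38 and 1.83 CPM and at 5.57, 8.31, 3.81 and 4.03 CPM, without overlap (log2 fold change 1.51, adjusted p = 0.00791). The 3 called lower were *Llgl2*, a polarity gene, with a log2 fold change of -0.56 (adjusted p = 0.0134), *Grhl1*, a Grainyhead-like factor, with -0.73 (adjusted p = 0.0104), and *Itga6*, an integrin of basement membrane contacts, with -0.74 (adjusted p = 0.00514). Of 7 other foregut endoderm genes tested, *Pyy*, *Sox17* and *Nkx2-6* were called higher and none lower, and their list summed to 13.8 to 42.6 CPM in wild-type and 48.1 to 119.9 CPM in Tbx20EH1Mut libraries, or to 4.28 to 31.6 CPM and 17.1 to 84.95 CPM without *Sox17*, the most abundant of them. *Trh* was lower in every Tbx20EH1Mut library than in any wild-type library but was not called (log2 fold change -1.345, adjusted p = 0.0575). The other genes tested from this list had positive log2 fold changes. *Sox17*, a factor shared by endoderm and endothelium, was nearly level within each genotype, at 7.71, 10.98, 9.98 and 8.12 CPM and at 35.0, 32.6, 30.98 and 35.9 CPM (log2 fold change 1.87, SE 0.141, adjusted p = 4.11e-05). *Nkx2-6*, a factor of pharyngeal endoderm and outflow tract, was at 4.07, 16.1, 2.59 and 5.61 CPM and at 44.3, 20.7, 10.7 and 18.7 CPM and peaked in MT-1 (log2 fold change 1.73, adjusted p = 0.0459). *Pyy*, a gut peptide hormone, had a log2 fold change of 1.88 (adjusted p = 0.0175).

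Hepatic and visceral endoderm genes had another order of libraries. Of 10 tested, 3 were called higher, *Rbp4*, *Apoa1* and *Trf*, all of which encode secreted carrier proteins, and the list summed to 10.7 to 22.8 CPM in wild-type libraries and to 46.9, 185, 18.04 and 14.4 CPM in MT-1 to MT-4. *Rbp4* was at 1.70, 0.733, 0.538 and 0.895 CPM and at 6.81, 21.8, 4.16 and 3.26 CPM, with its peak in MT-2 (log2 fold change 3.24, adjusted p = 0.00540). *Apoa1* and *Trf* also peaked in MT-2, with log2 fold changes of 2.94 (adjusted p = 0.0199) and 1.42 (adjusted p = 0.0161). Of 5 surface ectoderm genes tested, *Wnt6* and *Dlx3* were called higher and *Perp* lower, while *Krt5*, *Krt14* and *Krt15* had too few counts to be tested. *Wnt6*, a ligand made by surface ectoderm, was at 0.0910, 1.22, 0.0797 and 0.415 CPM and at 10.9, 5.26, 0.750 and 4.64 CPM (log2 fold change 3.54, adjusted p = 0.0175). *Dlx3* had a log2 fold change of 3.25 (adjusted p = 0.00933), and *Perp*, a desmosome gene, one of -0.93 (adjusted p = 0.0119). The whole surface ectoderm list summed to 36.8 to 65.3 CPM in wild-type and 36.0 to 39.8 CPM in Tbx20EH1Mut libraries, of which *Perp* made up 48.5% to 97.3% in a library. Without *Perp* the sums were 3.58, 4.03, 1.47 and 2.44 CPM in WT-1 to WT-4 and 20.5, 12.7, 3.16 and 8.38 CPM in MT-1 to MT-4, with WT-1 and WT-2 above MT-3. With *Wnt6* and *Dlx3* left out as well, they were 1.275 to 3.035 CPM in wild-type and 1.378 to 3.315 CPM in Tbx20EH1Mut libraries and overlapped.

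Of 4 notochord genes, 1 was tested and not called, and the list summed to at most 1.28 CPM in wild-type and 2.31 CPM in Tbx20EH1Mut libraries, with *Noto* at 1 count over all libraries. Of 5 neural tube genes tested, *Pax6* was called higher (log2 fold change 1.75, adjusted p = 0.00307) and *Tubb3* lower (-1.71, adjusted p = 0.0370), with sums of 14.9 to 30.9 CPM and 13.8 to 23.5 CPM. The summed level of the neural tube list overlapped between the genotypes. Of 2 somite genes tested, *Tcf15* was called higher (log2 fold change 2.60, adjusted p = 6.61e-04), with sums of 1.36 to 3.42 CPM and 3.06 to 11.8 CPM and with *Uncx* at 0 counts in all libraries.

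Tissues that normally belong to the heart or its surface were counted as well, since keratins are used in mesothelium. Of 6 proepicardial and mesothelial genes tested, *Wt1* was called higher, at 36.8, 17.3, 23.5 and 24.5 CPM and at 56.9, 86.8, 86.2 and 76.8 CPM (log2 fold change 1.59, SE 0.224, adjusted p = 0.00118), and none lower. The other 5 had log2 fold changes from -0.59 to -0.019, none called, and the median of the 6 was -0.10. *Wt1*, the epicardial factor, was not lowest in MT-3, and the list summed to 58.4 to 179.4 CPM in wild-type and 121.9 to 166 CPM in Tbx20EH1Mut libraries, or to 41.1 to 142.6 CPM and 48.6 to 79.2 CPM without *Wt1*. Of 8 endothelial genes, *Kdr*, *Emcn* and *Pecam1* were called higher, with log2 fold changes of 0.68 (adjusted p = 0.0119), 0.63 (adjusted p = 0.0405) and 0.51 (adjusted p = 0.00399), and the list summed to 682 to 839 CPM in wild-type and 846 to 914 CPM in Tbx20EH1Mut libraries. The other 5 had log2 fold changes from -0.25 to 0.055, none called, and the median of the 8 was 0.030. Without *Plvap*, *Kdr* and *Tie1*, the 3 most abundant of them, the sums were 327.4 to 390.4 CPM in wild-type and 361.2 to 414.1 CPM in Tbx20EH1Mut libraries and overlapped. Of 9 mesenchymal genes and repressors of epithelial genes, *Snai2*, a Snail-family repressor, was called higher, at 5.49, 3.20, 1.93 and 2.60 CPM and at 8.86, 7.46, 7.85 and 7.77 CPM (log2 fold change 1.28, adjusted p = 0.0106), and *Zeb1*, *Zeb2*, *Snai1* and *Twist1* were not called, with a median log2 fold change of -0.039 over the 9. Over the genes tested of the other lists, the median log2 fold change was 1.73 for foregut endoderm, 0.99 for Hedgehog response, 2.17 for hepatic and visceral endoderm, 0.80 for surface ectoderm, -0.33 for neural tube and 0.048 for cardiomyocyte genes, and 0.0048 for all genes. The part of any of these tissues in the levels of the 31 genes was not tested.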

How the data were processed

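RNA was measured in 8 libraries of poly-A selected RNA from whole hearts. The authors deposited unnormalized counts per Ensembl gene for each library. Their processing notes name Trimmomatic 0.36, STAR 2.5.2b, GRCm38 and mm10; the counting tool and strand setting are not given in the sources used here. Identifiers were matched to GENCODE M21, and 26 of the 31 genes had the same start and end there. Counts were fitted in R 4.3.3 with edgeR 4.0.16 (filterByExpr, TMM scaling, glmQLFit and glmQLFTest, genotype as the only term), and p-values were adjusted over 17163 genes (common dispersion 0.0707). The standard error is the absolute log2 fold change over the square root of F. Libraries were taken as replicates, and each pair within a genotype differed by more than counting noise. Single values were compared by exact permutation over 70 arrangements. The steps were tested on simulated data.

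The genes and lists were chosen with earlier results of these data known. The text names every gene of the set, *Tbx20* and, of each other list, up to 3 called genes of largest fold change with a mean of at least 1 CPM, some of which are not reported here; *Zeb1*, *Zeb2*, *Snai1*, *Twist1*, *Noto*, *Uncx*, *Krt5*, *Krt14*, *Krt15*, *Llgl2*, *Grhl1*, *Itga6*, *Dsp*, *Jup*, *Plvap* and *Tie1* were named after their values were seen. Alternatives were RLE and upper-quartile scaling, DESeq2 1.42.0, limma-voom (limma 3.58.1), other filters, a replicate block, leaving out each library and, added after seeing the data, an epithelial covariate. Tables and plots were made with Python 3.11.15, numpy 2.4.6, pandas 2.3.3 and matplotlib 3.10.9.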

Additional observations from a re-analysis of the deposited data

Results flagged for a closer look

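Levels of single libraries that stood far from the other 3 of their genotype, by the gap to the nearest library as a share of the range (above Dixon's 95% critical value), were found in 17 of the 62 groups of 4 libraries formed by the 31 genes, where chance gives about 5%. In 16 of these 17, WT-2 was the library on the high side. That is 16 of the 30 genes tested, against 2.65% of all genes tested. The genes of a library varied together, so the groups are not independent. For the endoderm genes, WT-2 was at 3.73 CPM for *Foxa1*, 2.32 CPM for *Foxa2*, 0.754 CPM for *Foxa3*, 6.66 CPM for *Sox2*, 3.95 CPM for *Pax9* and 4.03 CPM for *Shh*. For the epithelial regulators, it was at 3.69 CPM for *Grhl2*, 0.387 CPM for *Ovol2* and 6.64 CPM for *Esrp1*. For the junction genes, it was at 15.3 CPM for *Epcam*, 11.5 CPM for *Cldn4*, 20.8 CPM for *Cldn6* and 5.17 CPM for *Cldn7*. It was also at 5.58 CPM for *St14*, 1.14 CPM for *Rab25* and 3.08 CPM for *Ap1m2*. The remaining one was *Cldn3*, for which WT-3 was low, at 0.239 CPM.

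Among the named genes of other lists, 5 of 46 groups stood out in this way. *Foxf1* was high in WT-2 (7.52 CPM) and in MT-1 (32.6 CPM), and *Hhip* was high in WT-2 (1.81 CPM). *Apoa1* (7.70 CPM) and *Tubb3* (8.44 CPM) were high in MT-2.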

How the results depend on the processing

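With 13 of the 31 genes called higher with all libraries, beside 12.5% of all genes tested, RLE size factors gave 13 (12.5%), upper-quartile scaling 14 (14.7%), DESeq2 14 (8.87%), limma-voom 17 (13.5%), no filter on low counts 18 (6.77%), and a minimum of 10 counts in every library 10 (14.3%), with 13 of the 31 tested. Leaving out 1 library gave 8 to 27 of these calls, 1375 to 2948 genes called higher over all genes and 1376 to 2719 called lower. The counts without MT-3 and without each wild-type library, the 27 among them, include *Trp63*, whose calls there are not read. The 27 also include *Sox2*, *Rab25* and *Ovol2*, whose calls without WT-2 are not read. With the replicate number as a block, 25 of the 31 genes and 1910 (higher, 11.1%) and 1771 (lower) of all genes were called. Samples of the same number did not deviate together (correlations -0.354, 0.38, 0.0765 and 0.0753), nor did every sample correlate best with its own number, so the samples share only a number. No gene of the 31 was called lower in any fit. *Esrp2* turned positive with upper-quartile scaling (0.072) and without WT-2, MT-3 or MT-4 (0.28, 0.24 and 0.067), and leaving out 1 library gave -0.34 to 0.28. Over the alternative fits of single genes, 369 kept direction and call, 41 became called, 37 lost the call and 13 turned; the cause was not tested. Of the 13, 9 turned with the epithelial level of *Epcam*, *Cdh1* and *Cldn6* as a covariate, chosen after seeing the data, *Sox2* (-0.016), *Pax8* (-2.02), *Pax9* (-1.32), *Grhl2* (-1.10), *Ovol2* (-1.31), *Cldn4* (-0.42), *Krt7* (-0.70), *Spint1* (-0.032) and *St14* (-0.28). In all planned fits, 7 genes were called, *Hhex*, *Elf3*, *Cldn3*, *Krt8*, *Krt18*, *Krt19* and *Spint2*. Depth limits genes within a few counts of 0 in most wild-type libraries, *Ovol2*, *Trp63*, *Rab25* and *Sox2* among them.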
